A study of Homo sapiens with 16 samples.

Results

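The response of human A549 lung cancer cells to the compound 7F8 after 4 h of treatment was described from 4 RNA libraries of the 16 in the series. The 2 libraries labelled 7F8 at 4 h were set against the 2 libraries labelled DMSO at 4 h, and members were taken from the library titles. All 4 came from A549 cells, an epithelial line, made to overexpress a fusion of CD63, a tetraspanin of exosomes, with the luciferase Nluc, so the controls carried the fusion too. The treated cells received 7F8, which the labels call an inhibitor without naming its target, and the control cells received the solvent DMSO. A concentration of 4 µM stands in the label of each treatment, that of DMSO too. The remaining libraries held the code-named compounds 5G6 and 6D7 at 4 h and all 4 treatments at 48 h, with 2 libraries in each of the 8 groups. The series description calls the 2 libraries of a group biological replicates. Nothing says whether they came from separate cultures, so p-values cover the spread among these libraries, which may be technical. No untransfected A549 cells and no second clone were analysed here. The title of the series names exosome release, AMPK and SREBPs.

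NF-kB is a family of transcription factors held in the cytoplasm by inhibitor proteins such as IkB-alpha, the product of NFKBIA. Signals that destroy the inhibitor let NF-kB enter the nucleus and switch on chemokines, adhesion molecules, survival genes and its own inhibitors, which then shut the response down. In lung epithelium the pathway is known for recruiting neutrophils through the CXC chemokines.

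No gene passed the test at 4 h in the main fit, and the leading genes were NF-kB targets. SOD2, TNFAIP2 and CXCL5 were about 3 to 4 times as abundant with 7F8 as with DMSO, and the neutrophil chemokines CXCL1, CXCL2, CXCL3 and CXCL8 were much higher in 1 of the 2 treated libraries than in the other. Several histone genes, the autophagy receptor SQSTM1 and the transcription factor gene CEBPB were also higher. Of 40 DNA replication genes 26, and of 24 heat shock genes 13, were lower in both treated libraries than in both controls. This held for 23.4 percent of all genes. Under another scaling the counts shrank to 15 and 7, beside 16.3 percent of all genes. Expression is given as TPM, a length-corrected relative abundance, with mitochondrial genes left out. Log2 fold changes are 7F8 over DMSO on the log2(TPM + 1) scale, which understates changes of weakly expressed genes.

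Aligned bases, worked out from coverage and FPKM, came to 5.06 and 5.91 gigabases for 7F8 at 4 h and to 6.00 and 6.20 gigabases for DMSO at 4 h. Between 13378 and 14238 genes reached 1 TPM in these 4 libraries. Mitochondrial genes took 32.5 and 18.9 percent of the deposited TPM in 7F8 replicates 1 and 2, against 29.4 and 22.5 percent in DMSO replicates 1 and 2. Most of this share fell on 1 entry, TRNC, with 27.4 and 15.3 percent for 7F8, against 24.7 and 19.1 percent for DMSO. Among the 4 h groups the replicate number moved many genes: the first principal component held 41.7 percent of the variance and placed every replicate 1 below its own replicate 2. The epithelial keratin KRT8 had 2599 and 2592 TPM with 7F8, against 2978 and 3016 TPM with DMSO, and KRT18 had 1567 and 1831 TPM with 7F8, against 2094 and 2096 TPM with DMSO. The lung lineage factor NKX2-1 was listed at 0 in all 4 libraries. The pan-leukocyte marker PTPRC did not exceed 0.0587 TPM. Over the 12 leukocyte markers the summed level was 60.3 and 28.4 TPM with 7F8, against 68.9 and 32.7 TPM with DMSO. CD63, whose reads cannot be told apart from those of the fusion, had 1695 and 1063 TPM with 7F8, against 1697 and 1406 TPM with DMSO.

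Of 15958 genes tested with limma, 0 had a p below 0.05 after Benjamini-Hochberg (BH) adjustment, the threshold for a call, that is 0 percent. Without adjustment 867 genes had p below 0.05, of which 262 were higher with 7F8 (1.64 percent of genes tested) and 605 lower (3.79 percent). After median-of-ratios scaling, which centres the bulk of genes, the same test gave 470 higher (2.95 percent) and 441 lower (2.76 percent), so the higher share of these genes was 51.6 percent in place of 30.2 percent. The median log2 fold change of all genes was -0.11, and -0.02 after that scaling. Both 7F8 libraries lay above both DMSO libraries for 1608 genes (10.1 percent) and below them for 3742 genes (23.4 percent). After median-of-ratios scaling these counts were 2459 (15.4 percent) and 2598 (16.3 percent). Leaving out 7F8 replicate 1 gave 18 called genes and leaving out 7F8 replicate 2 gave 2. With a pseudocount of 0.1 there were 2 calls, without the filter on low values 6, and without the 2 libraries of 6D7 at 48 h 1, which was SOD2. With the 8 libraries at 4 h alone there were 2 calls, SOD2 (BH-adjusted p = 0.014) and CATSPERZ, which was lower with 7F8.

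SOD2 encodes the mitochondrial manganese superoxide dismutase, a classical NF-kB target. SOD2 had 815 and 886 TPM in the 7F8 libraries, against 189 and 211 TPM in the DMSO libraries. The treated libraries were close to each other and far above the controls, a log2 fold change of 2.08 (SE 0.28, BH-adjusted p = 0.066). SOD2 lies on chromosome 6 (159669069 to 159762529, minus strand, GRCh38) and overlaps WTAP, ACAT2 and SOD2-OT1, with which reads may be shared.

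TNFAIP2, a gene first found as induced by TNF, had 683 and 1052 TPM with 7F8, against 233 and 183 TPM with DMSO. The groups did not overlap, and the log2 fold change was 2.03 (SE 0.28, BH-adjusted p = 0.066). CXCL5, a neutrophil-attracting chemokine, had 1376 and 1814 TPM with 7F8, against 523 and 530.2 TPM with DMSO. Its 2 DMSO libraries were nearly equal and far below both treated libraries, a log2 fold change of 1.58 (SE 0.20, BH-adjusted p = 0.066). Over the alternatives tried, the adjusted p of SOD2 ran between 0.0040 and 0.678, that of TNFAIP2 between 0.030 and 0.934 and that of CXCL5 between 0.023 and 0.904. Without 7F8 replicate 1 the adjusted p was 0.030 for TNFAIP2 and 0.023 for CXCL5, and without 7F8 replicate 2 it was 0.70 and 0.63. With either DMSO library left out it lay between 0.50 and 0.55 for both genes. In such fits the lone library is assumed to vary like the other groups.

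ICAM1, the adhesion molecule that binds leukocyte integrins, had 34.2 and 61.3 TPM with 7F8, against 10.5 and 11.5 TPM with DMSO (log2 fold change 1.96, BH-adjusted p = 0.21). IRAK2, a kinase of interleukin-1 and Toll-like receptor signalling, had 79.9 and 197 TPM with 7F8, against 26.6 and 34.6 TPM with DMSO (log2 fold change 2.01, BH-adjusted p = 0.26). GCH1, which starts tetrahydrobiopterin synthesis, had 25.3 and 30.8 TPM with 7F8, against 10.5 and 9.92 TPM with DMSO (log2 fold change 1.37, BH-adjusted p = 0.26). In these 3 genes both treated libraries were above both controls, with 7F8 replicate 2 the higher of the pair. EFNA1, a membrane-bound ephrin ligand, showed the same order, with 177 and 351 TPM for 7F8, against 92.8 and 55.2 TPM for DMSO. PLAUR, the urokinase receptor, had 182 and 253 TPM with 7F8, against 109 and 124 TPM with DMSO. PTGS2, the inducible cyclooxygenase, had 133 and 355 TPM with 7F8, against 80.7 and 57.1 TPM with DMSO. GCH1, PLAUR, PTGS2 and, below, CCL20, TNFAIP3, TNIP1, NFKB2, IL6, CXCL11, CCL5 and HIST2H2AA3 were chosen for the text after their values were seen.

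The CXC chemokines differed widely between the 2 treated libraries. CXCL1 had 242 and 1579 TPM with 7F8, against 106 and 149 TPM with DMSO. CXCL2 had 57.0 and 503 TPM with 7F8, against 41.8 and 40.9 TPM with DMSO. CXCL3 had 51.8 and 528 TPM with 7F8, against 22.8 and 36.6 TPM with DMSO. In all 3, 7F8 replicate 2 stood many-fold above replicate 1, and replicate 1 was still above both controls. CXCL8, the neutrophil chemokine interleukin-8, had 156 and 1502 TPM with 7F8, against 83.9 and 104 TPM with DMSO. CCL20, which attracts cells bearing CCR6, had 27.3 and 487 TPM with 7F8, against 16.1 and 27.5 TPM with DMSO, so replicate 1 overlapped the controls. The log2 fold changes over both libraries were 2.29 for CXCL1, 2.01 for CXCL2, 2.48 for CXCL3, 2.36 for CXCL8 and 2.41 for CCL20, with BH-adjusted p between 0.69 and 0.89. CXCL1, CXCL2 and CXCL3 are close paralogs, and how the authors assigned reads that match several of them is not given in the sources used here. The growth factor gene CSF1 was less uneven, with 40.9 and 54.3 TPM for 7F8, against 25.2 and 26.4 TPM for DMSO. IL6 had 15.4 and 19.8 TPM with 7F8, against 13.5 and 14.4 TPM with DMSO. CXCL11, an interferon-inducible chemokine, was lower, with 1.13 and 0.782 TPM for 7F8, against 3.07 and 2.49 TPM for DMSO.

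**Figure D1:**
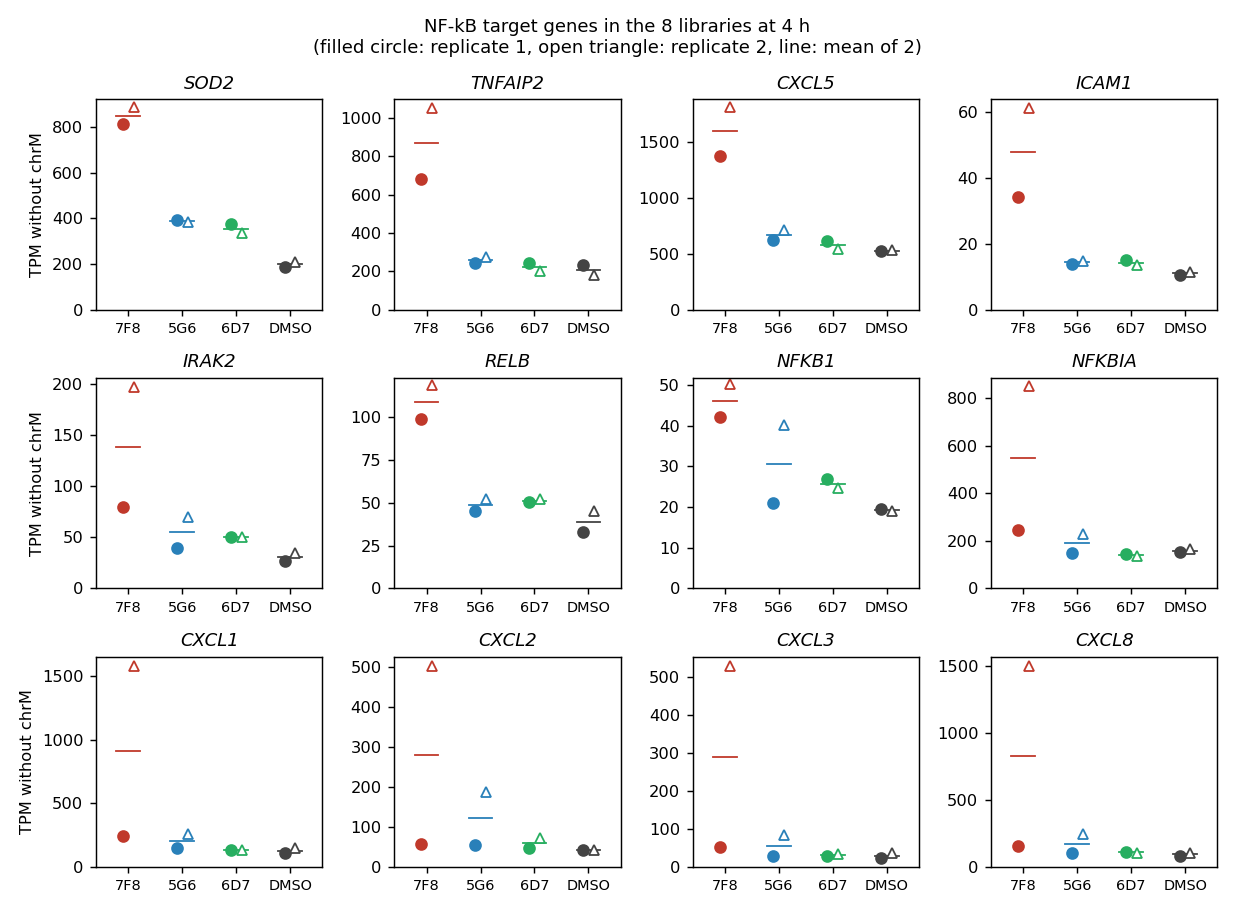
TPM without mitochondrial genes (y axis, from 0) of 12 NF-kB target genes in the 8 libraries at 4 h, by treatment (x axis); filled circles are replicate 1, open triangles replicate 2 and lines the mean of 2. SOD2 reached 815 and 886 TPM with 7F8, against 189 and 211 TPM with DMSO, while CXCL8 reached 1502 TPM in 7F8 replicate 2 and 156 TPM in replicate 1.

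Of the 25 tested NF-kB subunit and feedback genes, 14 had both 7F8 libraries above both DMSO libraries and 0 had both below. These orders held for 10.1 and 23.4 percent of all genes. The remaining 11 genes of the list had neither order. NFKB1, the p50 subunit precursor, had 42.1 and 50.2 TPM with 7F8, against 19.5 and 19.1 TPM with DMSO (log2 fold change 1.21, BH-adjusted p = 0.69). RELB, a subunit of the non-canonical branch, had 98.7 and 119 TPM with 7F8, against 33.1 and 44.9 TPM with DMSO (log2 fold change 1.46, BH-adjusted p = 0.66). NFKB2, the p52 precursor, had 193 and 165 TPM with 7F8, against 68.1 and 80.7 TPM with DMSO. The 2 treated libraries were within a narrow range for these subunits and lay above both controls. NFKBIA, the inhibitor, had 244 and 849 TPM with 7F8, against 152 and 163 TPM with DMSO, and so followed the uneven pattern of the chemokines. TNFAIP3, the deubiquitinase A20 that ends the response, had 41.6 and 81.2 TPM with 7F8, against 22.4 and 18.4 TPM with DMSO. TNIP1, its binding partner, had 405 and 221 TPM with 7F8, against 139 and 145 TPM with DMSO.

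Of the 72 tested genes on the inflammatory chemokine, NF-kB subunit and feedback, and NF-kB effector lists, 42 had both 7F8 libraries above both DMSO libraries and 2 had both below, beside 10.1 and 23.4 percent of all genes. At unadjusted p below 0.05, 31 were higher and 1 lower, beside 1.64 and 3.79 percent of all genes, and 0 were called after adjustment. These 72 genes had a median log2 fold change of 0.59, beside -0.11 for all genes tested. The median was 0.45 with 7F8 replicate 1 alone and 0.71 with replicate 2 alone. By list, the median was 0.87 for 21 effectors, 0.50 for 25 subunit and feedback genes and 0.25 for 26 chemokines and cytokines. Each DMSO library entered both replicate-wise medians, so these are not independent of each other.

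**Figure D2:**
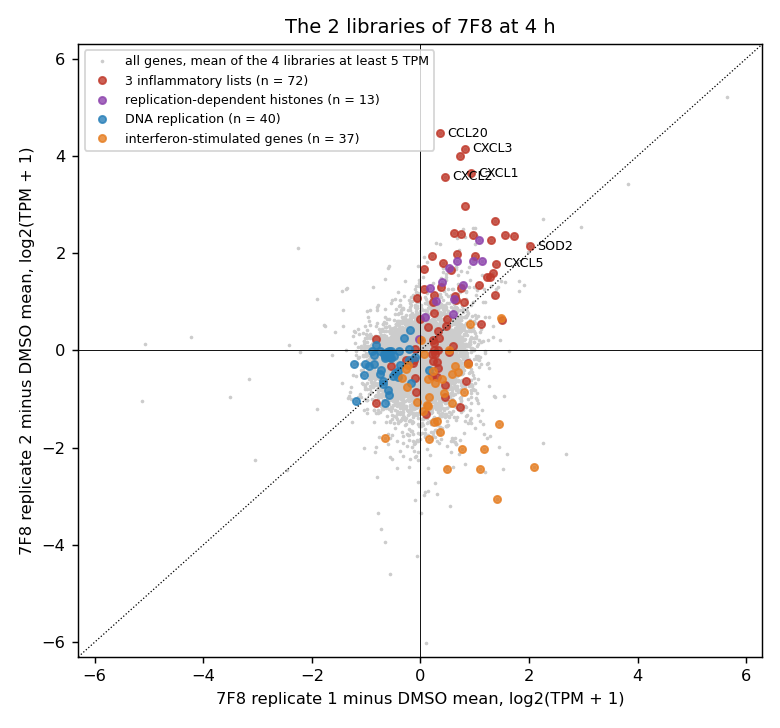
Difference of each 7F8 library at 4 h from the DMSO mean on the log2(TPM + 1) scale, replicate 1 on the x axis and replicate 2 on the y axis; points are genes, coloured by list, and the dotted line marks equal differences. SOD2, TNFAIP2 and CXCL5 lie near the line, CXCL1, CXCL2, CXCL3 and CXCL8 far above it, and interferon-stimulated genes mostly right of 0 and below 0.

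Promoter sequence was read from RefSeq (GRCh38.p14) in windows of 250 bases before to 50 after each gene start. CXCL1, CXCL2, CXCL3 and CXCL5 are shown because they hold the same letters, and NFKBIA because it encodes the inhibitor of the pathway. They were chosen after their values were seen. Sequences run 5′ to 3′ along the strand of the gene, and capitals mark every match to the NF-kB consensus on either strand, with overlapping matches merged.
CXCL1 (chr4:73869143-73869442, plus strand): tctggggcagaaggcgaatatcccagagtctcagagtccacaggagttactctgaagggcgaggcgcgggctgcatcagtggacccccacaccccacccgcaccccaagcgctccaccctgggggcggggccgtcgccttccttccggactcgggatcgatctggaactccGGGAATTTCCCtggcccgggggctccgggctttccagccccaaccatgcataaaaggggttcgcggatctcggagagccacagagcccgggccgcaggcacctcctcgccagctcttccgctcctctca
CXCL2 (chr4:74099146-74099445, minus strand): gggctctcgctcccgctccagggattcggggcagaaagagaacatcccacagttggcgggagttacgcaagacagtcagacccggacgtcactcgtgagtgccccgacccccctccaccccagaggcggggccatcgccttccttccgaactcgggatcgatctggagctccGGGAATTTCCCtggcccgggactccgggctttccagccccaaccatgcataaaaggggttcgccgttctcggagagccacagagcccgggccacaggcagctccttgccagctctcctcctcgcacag
CXCL3 (chr4:74038640-74038939, minus strand): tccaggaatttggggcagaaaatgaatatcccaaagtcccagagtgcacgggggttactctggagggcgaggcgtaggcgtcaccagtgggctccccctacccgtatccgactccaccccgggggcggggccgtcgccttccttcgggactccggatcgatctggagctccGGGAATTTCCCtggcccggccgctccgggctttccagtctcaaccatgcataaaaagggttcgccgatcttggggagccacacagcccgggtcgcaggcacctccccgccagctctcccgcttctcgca
CXCL5 (chr4:73998628-73998927, minus strand): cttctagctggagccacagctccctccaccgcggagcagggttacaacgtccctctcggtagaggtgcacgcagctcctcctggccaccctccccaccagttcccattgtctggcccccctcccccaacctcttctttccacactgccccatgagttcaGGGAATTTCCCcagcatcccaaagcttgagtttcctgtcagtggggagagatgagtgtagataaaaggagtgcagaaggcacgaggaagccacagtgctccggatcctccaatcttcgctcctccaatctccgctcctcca
NFKBIA (chr14:35404700-35404999, minus strand): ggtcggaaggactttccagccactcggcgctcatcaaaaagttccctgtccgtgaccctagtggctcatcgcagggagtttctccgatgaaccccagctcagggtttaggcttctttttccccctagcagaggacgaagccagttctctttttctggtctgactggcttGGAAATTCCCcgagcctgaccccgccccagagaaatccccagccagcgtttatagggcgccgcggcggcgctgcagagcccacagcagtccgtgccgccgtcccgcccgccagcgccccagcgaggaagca
CXCL1, CXCL2, CXCL3 and CXCL5 hold the same run of letters, GGGAATTTCC, which begins 79, 78, 79 and 91 bases before the gene start and also matches on the other strand with an offset of 1 base. NFKBIA holds 1 match, which begins 81 bases before its start. The consensus was searched as GGGRNNYYCC on either strand, where R is A or G, Y is C or T and N is any base. No match to this pattern lies in the windows of CXCL8, SOD2, TNFAIP2, ICAM1 or IRAK2. Looser or shorter matches were not searched for, so these windows may still hold them. Of the 72 inflammatory genes, 59 had a promoter in the table and 30 of these held a match (50.8 percent), beside 17.1 percent of the 11264 tested genes with a promoter and 13.3 percent of all 27305 genes in the table. The share was 18 of 35 among members with both 7F8 libraries above both DMSO libraries and 12 of 24 among the others. A match is a description of letters and not a binding site.

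Replication-dependent histone mRNAs normally end without a poly(A) tail, and 13 of the 23 on the list were tested in these polyA libraries. Of these, 11 had both 7F8 libraries above both DMSO libraries and 0 had both below, beside 10.1 and 23.4 percent of all genes. At unadjusted p below 0.05, 7 were higher, beside 1.64 percent of all genes. The median log2 fold change was 0.90, with 0.59 for 7F8 replicate 1 alone and 1.35 for replicate 2 alone. HIST2H4A had 46.3 and 107 TPM with 7F8, against 18.6 and 24.4 TPM with DMSO (log2 fold change 1.68, BH-adjusted p = 0.81). HIST1H2AC had 63.9 and 86.0 TPM with 7F8, against 37.1 and 45.5 TPM with DMSO. HIST2H2AA3 had 86.1 and 159 TPM with 7F8, against 34.8 and 54.3 TPM with DMSO. HIST2H4A and HIST2H2AA3 have near-identical copies, so their values are uncertain.

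SQSTM1, the autophagy receptor p62, had 2012 and 2371 TPM with 7F8, against 787 and 1132 TPM with DMSO. The groups did not overlap, and the log2 fold change was 1.21 (SE 0.22, BH-adjusted p = 0.26). MAP1LC3B, an ATG8 protein of the autophagosome membrane, had 87.1 and 123 TPM with 7F8, against 65.7 and 64.8 TPM with DMSO. FUNDC1, a receptor for removal of mitochondria, was lower, with 26.2 and 24.0 TPM for 7F8, against 42.7 and 51.2 TPM for DMSO (log2 fold change -0.87, BH-adjusted p = 0.63). Of 19 tested autophagy receptors and ATG8 proteins, 7 lay above in both libraries and 1 below, beside 10.1 and 23.4 percent of all genes, with a median of 0.28.

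NEU1, the lysosomal sialidase, had 40.2 and 33.5 TPM with 7F8, against 25.7 and 22.9 TPM with DMSO (log2 fold change 0.58, BH-adjusted p = 0.89). FLCN, folliculin, a regulator of mTORC1 and of the TFE factors at the lysosome, had 50.03 and 34.7 TPM with 7F8, against 21.6 and 20.9 TPM with DMSO (log2 fold change 0.94, BH-adjusted p = 0.66). MCOLN1, a calcium channel of lysosomes, had 16.02 and 13.9 TPM with 7F8, against 11.6 and 11.7 TPM with DMSO. Of 30 lysosomal hydrolases and membrane proteins, 12 had both 7F8 libraries above both DMSO libraries and 0 both below, beside 10.1 and 23.4 percent of all genes. At unadjusted p below 0.05 just 1 was higher, beside 1.64 percent of all genes, and the list median was 0.17. Against DMSO at 4 h the list median was 0.35 with 5G6 and 0.18 with 6D7.

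CEBPB, a transcription factor of inflammatory and stress responses, had 401 and 404 TPM with 7F8, against 231 and 218 TPM with DMSO (log2 fold change 0.84, BH-adjusted p = 0.26). GDF15, a stress-induced cytokine, had 224 and 346 TPM with 7F8, against 156 and 160.2 TPM with DMSO. BBC3, a pro-apoptotic p53 target, had 32.4 and 118 TPM with 7F8, against 24.4 and 25.9 TPM with DMSO. CDKN1A, the cell cycle inhibitor p21 and also a p53 target, had 276 and 296 TPM with 7F8, against 198 and 149 TPM with DMSO. Of 26 p53 targets 10 lay above and 3 below, beside 10.1 and 23.4 percent of all genes. FTH1, the ferritin heavy chain, had 11763 and 12966 TPM with 7F8, against 8956 and 10333 TPM with DMSO. HMOX1, heme oxygenase, had 827 and 309.7 TPM with 7F8, against 459 and 312 TPM with DMSO, and the groups overlapped. DDIT3, the stress factor CHOP, had 22.8 and 68.4 TPM with 7F8, against 31.3 and 64.0 TPM with DMSO, and followed the replicate number rather than the treatment. Interferon-stimulated genes differed between the 2 treated libraries: their median was 0.36 in 7F8 replicate 1 and -0.87 in replicate 2, each against the DMSO mean. Of 37 such genes 1 lay above in both libraries and 2 below, beside 10.1 and 23.4 percent of all genes.

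**Figure D3:**
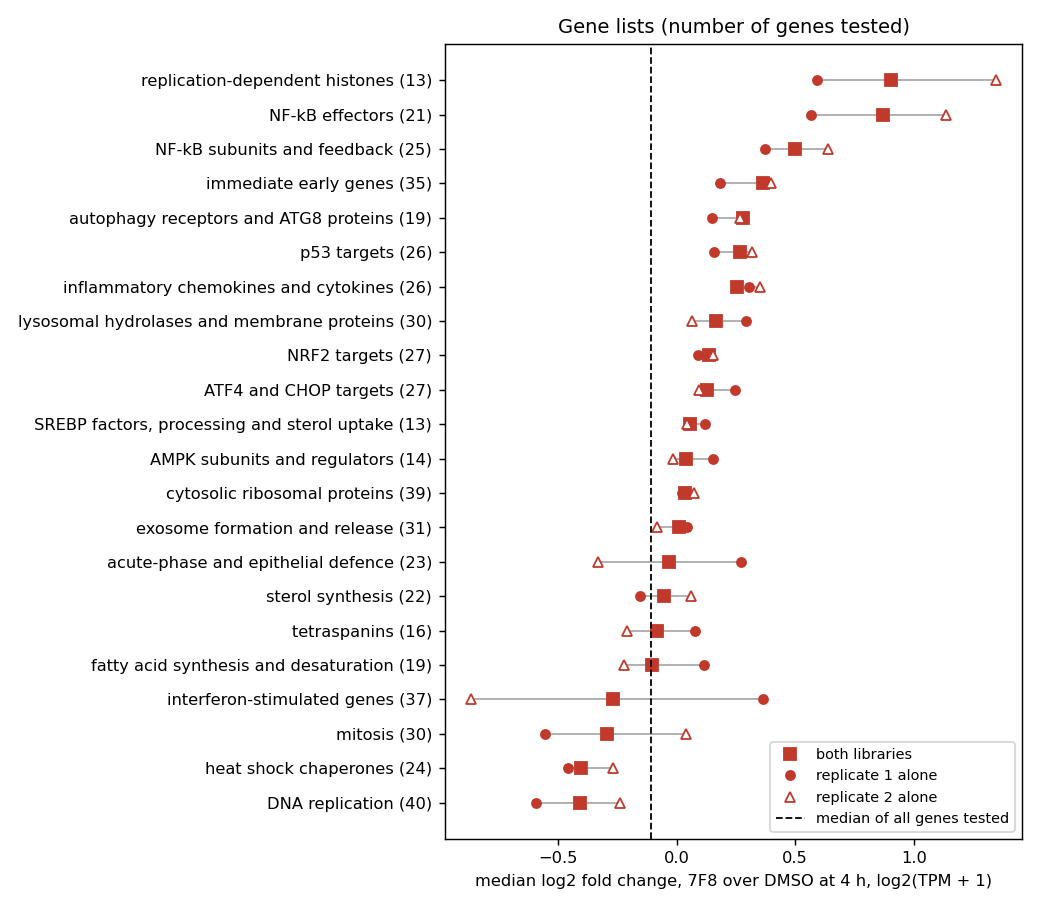
Median log2 fold change, 7F8 over DMSO at 4 h, of 22 gene lists (x axis), with the number of tested genes in parentheses; squares use both 7F8 libraries, circles replicate 1 and triangles replicate 2, and the dashed line is the median of all genes, -0.11. Replication-dependent histones and NF-kB effectors lie highest, at 0.90 and 0.87, DNA replication lowest, at -0.41, and interferon-stimulated genes spread most between replicates.

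DNA replication genes were lower in most cases. Of 40 tested genes, 26 had both 7F8 libraries below both DMSO libraries and 0 had both above, beside 23.4 and 10.1 percent of all genes, and after median-of-ratios scaling 15 lay below, beside 16.3 percent. The median log2 fold change was -0.41, and -0.31 after that scaling. POLE2, a subunit of DNA polymerase epsilon, had 6.18 and 6.93 TPM with 7F8, against 14.0 and 16.9 TPM with DMSO (log2 fold change -1.12, BH-adjusted p = 0.81). MCM3, part of the replicative helicase, had 52.4 and 55.1 TPM with 7F8, against 89.5 and 81.5 TPM with DMSO. GINS3, which joins that helicase, had 16.3 and 15.9 TPM with 7F8, against 23.4 and 23.2 TPM with DMSO. The treated libraries were close together in these 3 genes. At unadjusted p below 0.05, 3 of the 40 were lower, beside 3.79 percent of all genes. In bulk RNA fewer replicating cells and less RNA per cell cannot be told apart. Among 30 mitosis genes 4 lay below and 0 above, beside 23.4 and 10.1 percent of all genes. Their median was -0.29, with -0.55 in 7F8 replicate 1 alone and 0.038 in replicate 2 alone. The mitotic kinase gene AURKA had 79.0 and 68.7 TPM with 7F8, against 101 and 119 TPM with DMSO.

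Heat shock chaperone genes had the same median as the replication genes, -0.41, with 13 of 24 below in both libraries and 0 above, beside 23.4 and 10.1 percent of all genes. After median-of-ratios scaling 7 of 24 lay below, beside 16.3 percent, and the median was -0.30. CHORDC1, a co-chaperone of HSP90, had 26.2 and 30.8 TPM with 7F8, against 56.1 and 52.8 TPM with DMSO. HSPA8, the constitutive HSP70, had 1114 and 1046 TPM with 7F8, against 1793 and 1537 TPM with DMSO. HSPE1, the mitochondrial co-chaperonin, had 557 and 733 TPM with 7F8, against 823 and 919.9 TPM with DMSO. None of the 3 passed the test, with BH-adjusted p between 0.78 and 0.92.

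The largest differences outside the lists often sat on overlapping genes. SNURF had 59.5 and 43.9 TPM with 7F8, against 0.459 and 0 TPM with DMSO, a log2 fold change of 5.43. SNRPN, which overlaps it on the same strand, ran the other way, with 18.3 and 30.1 TPM for 7F8, against 62.5 and 80.2 TPM for DMSO. Their sum was 77.8 and 74.0 TPM with 7F8, against 63.0 and 80.2 TPM with DMSO, and the groups overlapped, so the split of reads between the genes is uncertain. DKK1, a secreted Wnt inhibitor, had 488 and 107 TPM with 7F8, against 653 and 491 TPM with DMSO (log2 fold change -1.30, BH-adjusted p = 0.88). The log2 fold change of DKK1 was -0.21 with 7F8 replicate 1 alone and -2.39 with replicate 2 alone. DIO2, which activates thyroid hormone, had 2.91 and 1.25 TPM with 7F8, against 10.03 and 5.41 TPM with DMSO. EDN2, an endothelin, had 1.75 and 0 TPM with 7F8, against 6.53 and 4.90 TPM with DMSO.

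AMPK is a kinase that senses low energy, and SREBPs switch on sterol and fatty acid synthesis when sterols are scarce. SREBF1, which encodes an SREBP, had 111 and 63.9 TPM with 7F8, against 156 and 123 TPM with DMSO, and lay below both controls (log2 fold change -0.71, BH-adjusted p = 0.97). SREBF2, which encodes the other, had 72.7 and 38.5 TPM with 7F8, against 61.3 and 39.7 TPM with DMSO. INSIG1, which holds SREBPs in the endoplasmic reticulum and is itself their target, had 37.2 and 101 TPM with 7F8, against 29.2 and 49.1 TPM with DMSO. HMGCS1, of the mevalonate pathway, had 42.5 and 69.2 TPM with 7F8, against 54.8 and 76.5 TPM with DMSO. In both genes the groups overlapped. Of 22 sterol synthesis genes 3 lay above and 5 below, beside 10.1 and 23.4 percent of all genes, with a median of -0.05. After median-of-ratios scaling 3 lay above and 0 below, beside 15.4 and 16.3 percent of all genes, and the median was 0.05. PRKAA1, a catalytic AMPK subunit, had 29.7 and 31.0 TPM with 7F8, against 34.8 and 34.1 TPM with DMSO. RAB27A, a GTPase of exosome secretion, had 4.88 and 6.05 TPM with 7F8, against 6.85 and 8.91 TPM with DMSO. SDCBP, the exosome adaptor syntenin, had 201 and 352 TPM with 7F8, against 170.3 and 188 TPM with DMSO. Of 31 exosome formation and release genes 4 lay above and 7 below, beside 10.1 and 23.4 percent of all genes, and after median-of-ratios scaling 11 lay above and 4 below, beside 15.4 and 16.3 percent.

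In 2 direct comparisons 7F8 was set against the other code-named compounds at the same 4 µM and 4 h, each adjusted over all genes tested. Against 5G6, 1 gene of 15958 was called (0.00627 percent), and it was lower with 7F8. Against 6D7, 0 genes were called, and 920 had an unadjusted p below 0.05 (5.77 percent). ELOVL6, an elongase of saturated fatty acids and an SREBP target, had 4.72 and 6.31 TPM with 7F8, against 42.0 and 36.0 TPM with 5G6. The log2 difference was -2.62 (95% interval -3.26 to -1.98, BH-adjusted p = 0.021). The call was lost without 7F8 replicate 2 (adjusted p = 0.052), without 5G6 replicate 1 (0.19), without 5G6 replicate 2 (0.14) and with the 8 libraries at 4 h alone (0.15). Against 6D7, with 26.8 and 20.2 TPM, the ELOVL6 difference was -1.91 (95% interval -2.55 to -1.27, BH-adjusted p = 0.17). Against DMSO, with 11.9 and 15.3 TPM, the ELOVL6 log2 fold change was -1.16 (BH-adjusted p = 0.69). HMGCS1 reached 306 and 298 TPM with 5G6 and 194 and 111 TPM with 6D7, and the 7F8 minus 5G6 difference was -2.45 (95% interval -3.74 to -1.17, BH-adjusted p = 0.29). INSIG1 reached 296 and 241 TPM with 5G6 and 197 and 97.7 TPM with 6D7, and the 7F8 minus 5G6 difference was -2.11 (95% interval -3.36 to -0.86, BH-adjusted p = 0.35). The median of the 22 sterol synthesis genes was -1.49 for 7F8 minus 5G6 and -0.71 for 7F8 minus 6D7, beside -0.22 and -0.12 for all genes tested. Against DMSO at 4 h the list median was 1.46 with 5G6, 0.68 with 6D7 and -0.05 with 7F8. For all genes tested these medians were 0.11, 0.0063 and -0.11.

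SOD2, TNFAIP2 and CXCL5 ran the other way between compounds, and their differences did not pass the test. SOD2 had 391.5 and 383 TPM with 5G6 and 374 and 336 TPM with 6D7. The SOD2 difference was 1.13 for 7F8 minus 5G6 (95% interval 0.52 to 1.75, BH-adjusted p = 0.29) and 1.26 for 7F8 minus 6D7 (95% interval 0.64 to 1.87, BH-adjusted p = 0.54). TNFAIP2 had 246 and 277 TPM with 5G6 and 243 and 203 TPM with 6D7, with differences of 1.70 for 7F8 minus 5G6 (BH-adjusted p = 0.14) and 1.93 for 7F8 minus 6D7 (BH-adjusted p = 0.16). CXCL5 had 627 and 713 TPM with 5G6 and 618 and 541 TPM with 6D7, with differences of 1.24 for 7F8 minus 5G6 (BH-adjusted p = 0.14) and 1.45 for 7F8 minus 6D7 (BH-adjusted p = 0.16). In all 3 genes both 7F8 libraries lay above every other library at 4 h. CXCL1, CXCL2, CXCL3 and CXCL8 did not hold this order, and only 7F8 replicate 2 lay above every other library. For them 7F8 replicate 1, with 242, 57.0, 51.8 and 156 TPM, lay below 5G6 replicate 2, with 256, 188, 84.0 and 244 TPM.

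**Figure D4:**
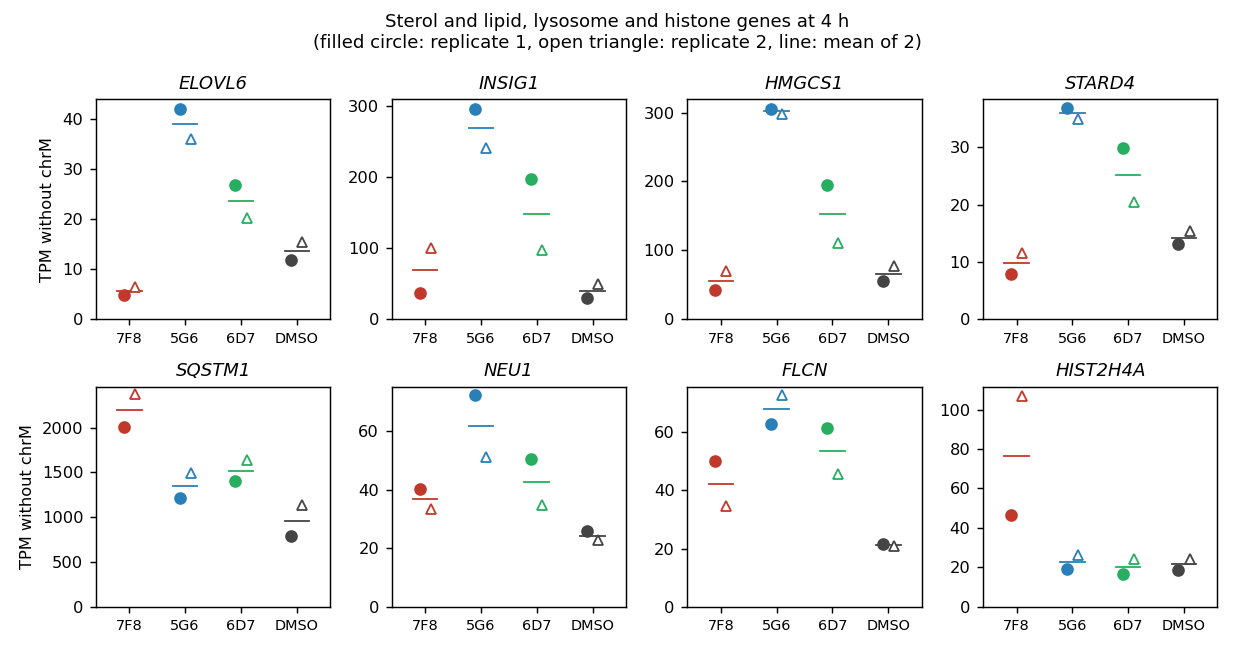
TPM without mitochondrial genes (y axis, from 0) of 8 genes in the 8 libraries at 4 h, by treatment (x axis); filled circles are replicate 1, open triangles replicate 2 and lines the mean of 2. ELOVL6 had 4.72 and 6.31 TPM with 7F8, against 42.0 and 36.0 TPM with 5G6 and 11.9 and 15.3 TPM with DMSO.

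The 48 h libraries of 7F8 and DMSO share no library with the 4 h comparison, though all 16 share the estimate of spread. At 48 h 1403 genes were called (8.79 percent), 365 higher with 7F8 (2.29 percent of genes tested) and 1038 lower (6.5 percent). The count was 83 without 7F8 48 h replicate 1, 65 without DMSO 48 h replicate 1 and 456 without DMSO 48 h replicate 2. Of the 262 genes higher at 4 h at unadjusted p below 0.05, 63 rose at 48 h (24.0 percent) and 2 fell. Of the 605 lower at 4 h, 145 fell at 48 h (24.0 percent) and 3 rose. Across the 15958 genes Pearson's r of the log2 fold changes at the 2 times was 0.38, a description over genes, which are not independent replicates.

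Of the 72 inflammatory genes 25 rose at 48 h and 0 fell, beside 2.29 and 6.5 percent of all genes. SOD2 had 3308 and 2323 TPM with 7F8 at 48 h, against 229 and 184 TPM with DMSO (log2 fold change 3.75, BH-adjusted p = 0.00019). CXCL8 had 1304 and 623 TPM with 7F8 at 48 h, against 98.0 and 70.5 TPM with DMSO (log2 fold change 3.42, BH-adjusted p = 0.026), and here replicate 1 was the higher. TNFAIP2 had 598 and 710.4 TPM with 7F8, against 245 and 290.3 TPM with DMSO (log2 fold change 1.29, BH-adjusted p = 0.018). IL6 had 265 and 96.6 TPM with 7F8, against 15.6 and 13.6 TPM with DMSO (log2 fold change 3.37, BH-adjusted p = 0.0020). CCL5, a chemokine for T cells, had 2391 and 1762 TPM with 7F8, against 417 and 879 TPM with DMSO (log2 fold change 1.76, BH-adjusted p = 0.014), whereas at 4 h it had 431 and 409.7 TPM with 7F8, against 389 and 565 TPM with DMSO.

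Of the 40 DNA replication genes 39 fell and 0 rose at 48 h, beside 6.5 and 2.29 percent of all genes. Of the 30 mitosis genes 26 fell and 0 rose, beside the same shares. MCM3 had 21.9 and 25.8 TPM with 7F8 at 48 h, against 107 and 86.1 TPM with DMSO (log2 fold change -1.97, BH-adjusted p = 0.0029). Of the 30 lysosomal genes 15 rose and 0 fell, beside 2.29 and 6.5 percent of all genes. NEU1 had 185 and 129 TPM with 7F8 at 48 h, against 26.6 and 26.98 TPM with DMSO (log2 fold change 2.48, BH-adjusted p = 0.0010). SQSTM1 had 2663 and 3036 TPM with 7F8 at 48 h, against 709.7 and 678 TPM with DMSO (log2 fold change 2.03, BH-adjusted p = 0.0015). A test of the 48 h effect minus the 4 h effect called 1 gene of 15958 (0.00627 percent), DDC, which encodes aromatic L-amino acid decarboxylase. DDC had 5.75 and 5.07 TPM with 7F8 at 4 h, against 6.93 and 6.40 TPM with DMSO, and 0.481 and 0.236 TPM with 7F8 at 48 h, against 9.95 and 8.40 TPM with DMSO. The difference of effects was -2.65 (95% interval -3.34 to -1.96, BH-adjusted p = 0.042). The DDC call was lost without DMSO 4 h replicate 1, without DMSO 4 h replicate 2 and without 7F8 48 h replicate 1.

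**Figure D5:**
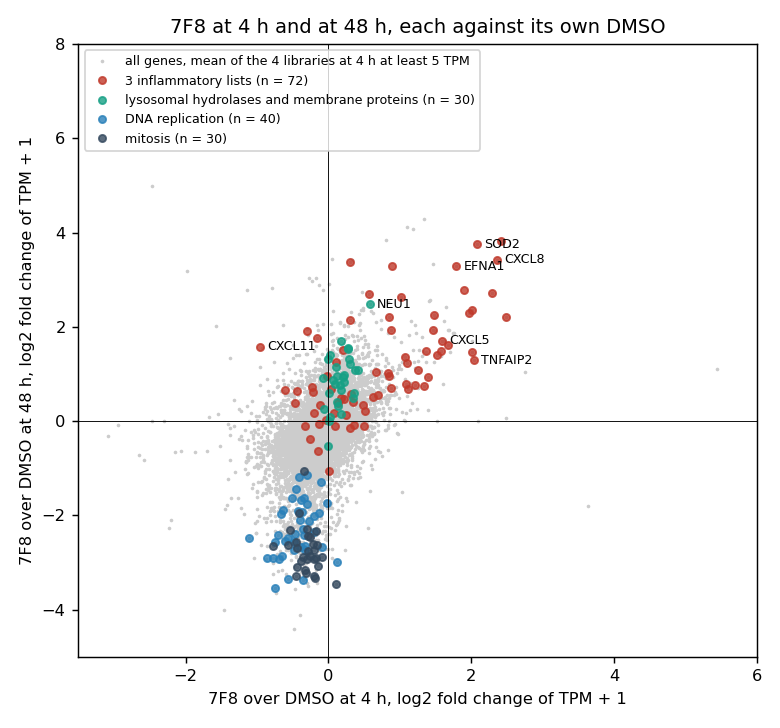
Log2 fold change of TPM + 1, 7F8 over DMSO, at 4 h (x axis) and at 48 h (y axis), for genes with a mean of at least 5 TPM at 4 h in grey and for members of 4 gene lists in colour. Most inflammatory genes lie right of 0 and above 0, and DNA replication and mitosis genes lie far below 0 at 48 h.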

How the data were processed

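Per the labels' protocols, RNA came from TRIzol extraction followed by DNase I, and NEBNext Ultra libraries of polyA RNA were built, each with an input of 1 µg. The submitters' processing notes name STAR 2.6.1a, featureCounts 1.6.3, StringTie 2.0 and GRCh38, without roles. Strandedness and the handling of reads that match several genes are not given in the sources used here. TPM values were made and deposited by the authors, 1 gene table per library with columns named as StringTie names them, and sum to 1000000 with mitochondrial genes included. FPKM values were deposited by the authors in the same tables and, per the file headers, coverage values are the read coverage of each gene. FPKM and coverage served only to work out aligned bases. Read counts were not used, so no counting interval is given.

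TPM was summed by gene name, chromosome M was left out and the rest was rescaled to 1000000. Of 26156 genes with TPM above 0, the 15958 with at least 1 TPM in at least 2 of the 16 libraries were tested. All 16 libraries entered 1 limma 3.58.1 fit (R 4.3.3) of log2(TPM + 1) with 8 group means, no covariate, a mean-variance trend and 8 residual degrees of freedom, to which moderation added a median of 3.80. P-values were two-sided, Benjamini-Hochberg adjustment was made within each comparison, calls were made below 0.05 and intervals are at 95%. Groups of 2 were too small to test for outlying libraries. Simulated data were used to test the scripts. Figures and tables were made with Python 3.11.15, pandas 2.3.3, numpy 2.4.6 and matplotlib 3.10.9.

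The 46 gene lists (1037 genes, 965 tested) came from general knowledge and carry no set test. The members, lists and named genes were chosen with earlier results of these data known. The rule for named genes took genes with a mean of at least 5 TPM in the higher group and no overlap between groups: called genes, the 15 largest differences each way with unadjusted p below 0.05, the 3 members of each list with the smallest p, the 4 largest called differences each way between compounds and times, and 15 fixed genes. The text prints a part of these, and names the genes chosen outside the rule. Alternatives were a pseudocount of 0.1, no filter, a filter on the 4 libraries, TPM as deposited, variance without trend, median-of-ratios scaling with factors of 0.853 to 1.18, fewer libraries, a replicate block and leaving out each library.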

Additional observations from a re-analysis of the deposited data

Results flagged for a closer look

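The effect of 7F8 on DDC differed between times, by a test of the difference itself: the log2 effect at 48 h minus that at 4 h was -2.65 (BH-adjusted p = 0.042), with -2.91 at 48 h and -0.26 at 4 h. ELOVL6 differed between compounds at 4 h: the log2 difference, 7F8 minus 5G6, was -2.62 (BH-adjusted p = 0.021). Both genes lay lower in 2 of 2 libraries of 7F8 in these comparisons. Each of these calls was lost when some single libraries were left out.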

How the results depend on the processing

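Genes called at 4 h against DMSO numbered 0, and 2 with a pseudocount of 0.1, 6 with no filter, 2 with the 8 libraries at 4 h alone and 0 to 18 with 1 library left out. Genes higher at unadjusted p below 0.05 numbered 262, 470 after median-of-ratios scaling and 155 to 323 with 1 library left out, and genes lower 605, and 247 to 1133 with 1 left out. Calls against 5G6 numbered 1, and 3 with a pseudocount of 0.1, 19 with no filter, 2 with TPM as deposited, 0 with the 8 libraries alone and 1 to 33 with 1 left out. Calls against 6D7 numbered 0, and 1 with a pseudocount of 0.1, 5 with no filter, 1 with the 8 libraries alone and 0 to 19 with 1 left out. Calls at 48 h numbered 1403, and 65 to 1058 with 1 left out. Calls for the difference of times numbered 1, and 9 with no filter, 2 after median-of-ratios scaling and 0 to 13 with 1 left out. The cause of these shifts was not tested.

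Same-numbered libraries deviated together, with a correlation of 0.52 between 7F8 and DMSO at 4 h. Between groups of the same time it was 0.36 to 0.59 at 4 h and 0.38 to 0.55 at 48 h. Between groups of different times it was 0.054 to 0.34. The main fit had no term for replicate number, so this shared shift stayed in its spread, but 2 libraries a group do not establish pairing. With the replicate block, calls were 0 at 4 h, 2721 at 48 h and 32 for the difference of times, and 395 genes were higher and 1071 lower at unadjusted p below 0.05. Added after the data were seen, a replicate block within each time gave 11 calls at 4 h (among them SOD2, TNFAIP2, CXCL5, IRAK2 and SQSTM1, with adjusted p of 0.0043 for SOD2 and 0.043 for the others named), 196 against 5G6, 4088 at 48 h and 598 for the difference, with 568 higher and 1628 lower. Without the 2 libraries of 6D7 at 48 h, also added later, 1 gene was called at 4 h.

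Of 1953 values of 139 gene results under the alternatives, 1843 kept direction and side of the threshold, and 11 changed sign, none of them past the threshold. The alternatives reuse the same libraries, and no gene was called at 4 h against DMSO in the main fit. The count therefore does not measure how reliable the values are. With 1 library left out, the log2 fold change ran between -0.29 and 1.12 for HMOX1, -0.95 and 0.60 for DDIT3, -0.35 and 0.55 for SREBF2, -0.59 and 0.094 for HMGCS1, -0.027 and 1.38 for INSIG1, -0.54 and 0.13 for CD63, -0.24 and 0.033 for LDHA and -0.42 and 0.11 for CCL5, and LDHA was 0.0029 after median-of-ratios scaling. TPM gives relative abundance, and the tables used here hold no read counts, so the precision of weakly expressed genes is unknown.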
